A study of Mus musculus with 6 samples.

Results

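The endoplasmic reticulum (ER) stress genes examined here were Hspa5, Xbp1, Ern1, Ern2, Atf4, Atf6, Ddit3, Dnajb9, Pdia4 and Creb3l1. These 10 genes were taken by their symbols from a table of 55487 genes. All 10 passed the filter on low counts, which kept 14650 genes. None of them passed the test for a difference between Nsd2 Vil-KO and Nsd2 f/f colon epithelial cells after dextran sodium sulphate (DSS). Ddit3 was the single member of the 10 whose values did not overlap between the genotypes, where 9.9% of all genes tested showed no overlap. Ddit3 was lower in each Nsd2 Vil-KO library, while Xbp1 and Creb3l1 came closest by the size of the difference against its error.
Proteins that enter the secretory pathway fold in the ER, and unfolded chains that build up there start the unfolded protein response (UPR). Its sensors are IRE1, PERK and ATF6: IRE1 splices Xbp1 mRNA, PERK phosphorylates eIF2α and so favours translation of ATF4, and ATF6 is cut in the Golgi to free a transcription factor. The targets include chaperones, enzymes that form disulphide bonds and the degradation machinery, with CHOP, encoded by Ddit3, as the factor tied to cell death. Goblet cells, which fill the ER with mucin, carry a second IRE1, encoded by Ern2. Splicing, phosphorylation and cleavage are not visible in counts per gene, so the values below are transcript levels and not pathway activity.
RNA was taken from isolated intestinal epithelial cells (IECs) of the colon of DSS-treated mice, with 3 libraries for each genotype. DSS in the drinking water injures the colonic epithelium. Both groups were of C57BL/6J background, with littermates as controls per the methods, and carried Nsd2 alleles flanked by loxP sites. Nsd2 Vil-KO mice also carried Cre under the Villin promoter, which removes Nsd2, a histone H3K36 methyltransferase, from intestinal epithelium and leaves it in other cells. Nsd2 f/f mice, called controls below, have libraries titled WT, and the study names them by the floxed alleles alone, without that transgene. Nsd2 Vil-KO mice, with libraries titled NSD2-FF-VILCRE, are called knockouts, and no library of untreated mice was analysed here. The methods give 2% DSS for 5 days from an age of 2 months, but the day on which cells were taken for RNA-seq was not found there. The labels do not state that each library came from a separate animal, and the p-values measure the spread between these libraries, which may be partly technical.

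Between 15439123 and 20350539 reads per library were counted on genes. Levels are given as CPM, read counts scaled to a common library size after TMM normalisation. For the labelled cell type, epithelial markers (Epcam, Krt8 and 8 others) summed to between 12955 and 19396 CPM. The targeted gene Nsd2 was lower in each Nsd2 Vil-KO library (10.4 to 24.2 CPM) than in each Nsd2 f/f library (24.6 to 51.2 CPM), with a log2 fold change of −1.16 (SE 0.39, adjusted p = 0.992 by edgeR). Its exons overlap those of Nelfa on the opposite strand. Nsd2 f/f 3, the library closest to the other genotype, and Nsd2 Vil-KO 2 held 4296 and 3684 counts of Xist, against at most 5 in the other 4 libraries. They also stood apart in overall expression, and Nsd2 f/f 3 had 19.6% of its counts on mitochondrial genes, against 5.51% to 9.13% elsewhere.

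The promoter sequences show the element through which ER stress is known to act on many UPR genes. The ER stress response element (ERSE) holds CCAAT and CCACG separated by 9 bases, on either strand, and is bound by NF-Y at CCAAT and by ATF6 or XBP1 at CCACG. Windows from 250 bases before to 50 after the RefSeq start site were available for 7 of the 10 members. Of these, the window of Hspa5 held the full element. RefSeq places the start of Hspa5 at chr2:34772090 on the plus strand of GRCm38.p6, and the 250 bases before it (chr2:34771840-34772089) are printed with capitals for the full ERSE, 65 bases upstream, and for a shorter form, CCAAT and CCA separated by 9 bases, 98 bases upstream. The full element contains the shorter one.
Hspa5: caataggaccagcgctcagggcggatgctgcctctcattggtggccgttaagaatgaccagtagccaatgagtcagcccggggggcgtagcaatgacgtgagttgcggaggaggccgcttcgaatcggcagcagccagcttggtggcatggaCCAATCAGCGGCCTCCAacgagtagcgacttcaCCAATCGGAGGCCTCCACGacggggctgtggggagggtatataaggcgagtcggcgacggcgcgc
The full element was found in 0.119% of all 32851 windows and the shorter form in 1.09%. Pdia4 held the shorter form on the opposite strand, 106 bases upstream. Xbp1, Ern1, Atf4, Ddit3 and Dnajb9 held no match to the ERSE, to ERSE-II (ATTGG and CCACG separated by 1 base), to the UPR element (TGACGTGG), to the CARE sequence read by ATF4 (TGATGCAA) or to the CRE core (TGACGTCA), which says only that these letters are not in those windows. On either strand, ERSE-II was in 0.0365% of windows, TGACGTGG in 0.676%, TGATGCAA in 0.895% and TGACGTCA in 1.79%.
Of the 120 symbols of UPR genes listed by role, some of which are 2 names of a single gene, 95 had a window and 10 of those held the full ERSE. The sites of 4 ER chaperones or co-chaperones and a protein disulphide isomerase are shown next to that of Hspa5 (chr2:34772025-34772043, plus strand), from 5′ to 3′ with the fixed letters in capitals, because the letters between the fixed ends differ from gene to gene. Hsp90b1 has another site, and Creld2, Derl3, Ero1b and Syvn1 have sites too, which are not printed.
Hspa5: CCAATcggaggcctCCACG
Calr (chr8:84847075-84847093, plus strand): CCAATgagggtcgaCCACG
Canx (chr11:50325800-50325818, minus strand): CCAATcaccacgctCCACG
Hsp90b1 (chr10:86705533-86705551, plus strand): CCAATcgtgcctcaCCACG
Dnajc3 (chr14:118937827-118937845, plus strand): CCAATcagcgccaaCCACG
Pdia6 (chr12:17266491-17266509, plus strand): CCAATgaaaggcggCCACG

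Among the members, 0 of 10 had a fold change above 1.2 with an unadjusted p below 0.05 by edgeR, the screening criterion, which 482 of all genes tested passed (3.29%), 241 higher and 241 lower in knockouts (1.65% each). No member had an unadjusted p below 0.05 by edgeR or by DESeq2. No gene of the 14650 had an adjusted p below 0.05 by edgeR (0%), against 482 with an unadjusted p below 0.05, and DESeq2 gave 4, of which 0 were members. Of the members, 6 had a log2 fold change below 0 and 4 above, where 49.9% of all genes tested were below 0. The median was −0.066, beside 0.0012 over all genes tested. The median size of the change without its sign was 0.18, against 0.23 over all genes. Non-overlapping CPM between genotypes was seen in 1 member, Ddit3, which is 10% of the members, where 9.9% of all genes tested showed no overlap. With 3 libraries against 3, an exact permutation test cannot give a p below 0.1.

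**Figure D1:**
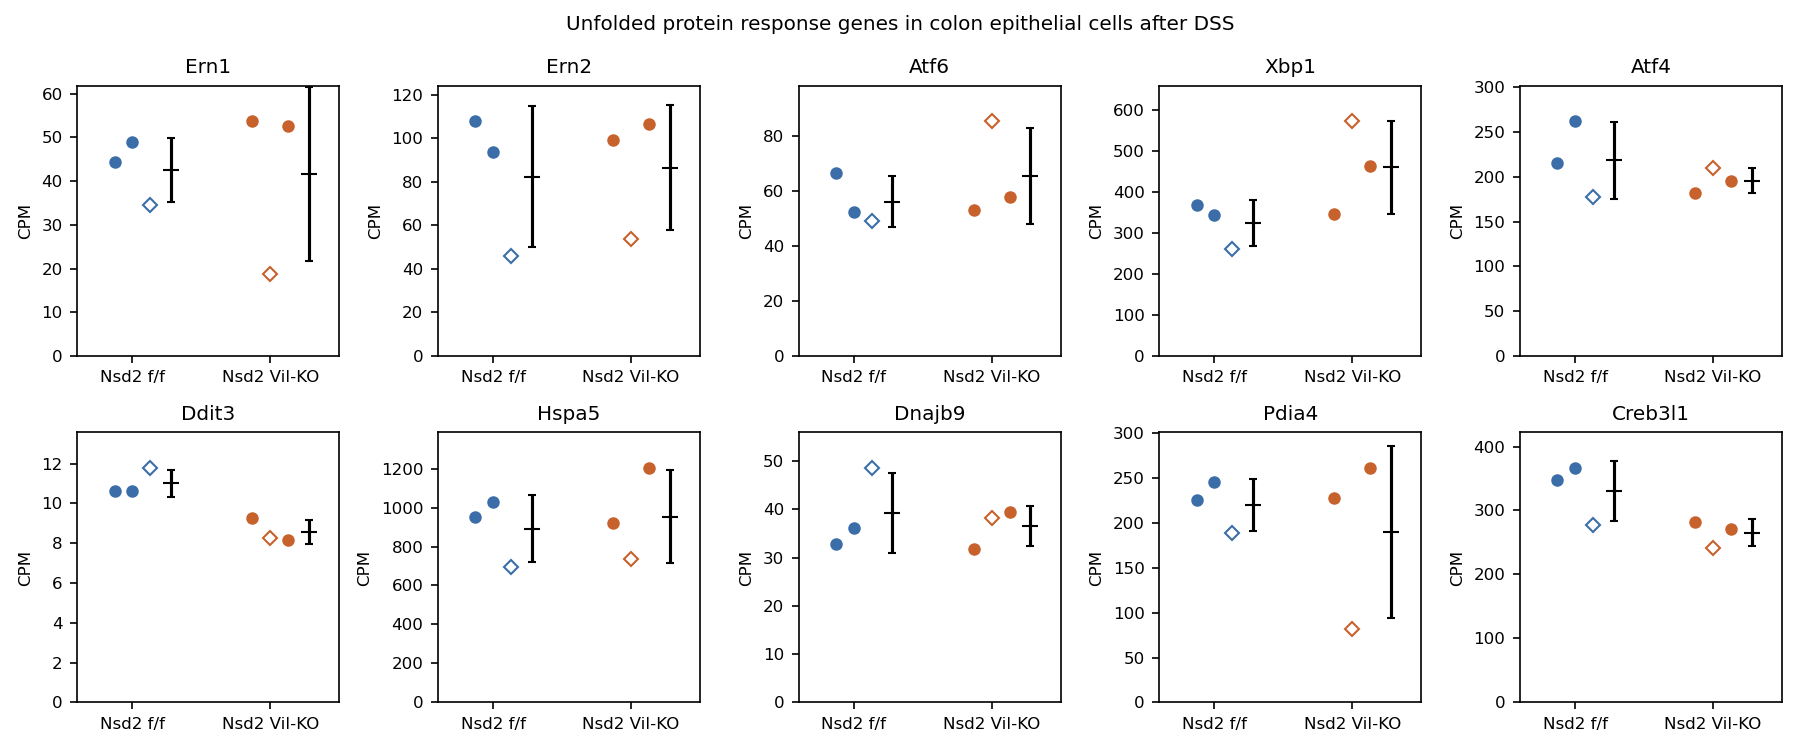
CPM of the 10 genes in each library (points), with the mean and SD of each genotype (bars, n = 3) and open diamonds for the libraries that hold Xist. The genotypes overlap in each gene except Ddit3, where the Nsd2 Vil-KO libraries lie between 8.17 and 9.26 CPM and the Nsd2 f/f libraries between 10.6 and 11.8.

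Compared per length, as mean CPM per kilobase of exon over the 6 libraries, Hspa5 stood first at 218 ± 44.6 (SD), followed by Xbp1 at 121 ± 33.7 and Creb3l1 at 115 ± 18.6. Atf4 (87.8 ± 13.2) and Pdia4 (85.4 ± 27.2) came next, then Ern2 at 28.5 ± 9.28 and Dnajb9 at 14.9 ± 2.37. The lowest were Atf6 at 6.58 ± 1.46, Ddit3 at 5.71 ± 0.85 and Ern1 at 5.15 ± 1.64. The chaperone was thus the most abundant transcript per length, and the sensors Atf6 and Ern1 were near the bottom. Neighbours in this order overlapped in their ranges, except Dnajb9 and Atf6. The order of Xbp1 over Creb3l1 and of Atf4 over Pdia4 was seen in 2 of 6 libraries each, whereas Creb3l1 over Atf4 and Pdia4 over Ern2 was seen in all 6. Ern2 had more CPM per kilobase than Ern1 in each library.

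Of the sensors, Ern1 (ENSMUSG00000020715, chr11:106394650-106487852), which encodes IRE1α, had 44.3, 49.0 and 34.5 CPM in Nsd2 f/f 1, 2 and 3, and 53.7, 18.7 and 52.5 CPM in knockouts 1, 2 and 3. A single library, Nsd2 Vil-KO 2, lay well below the other 5, and apart from it the knockouts were the higher group. Its log2 fold change was −0.033 (SE 0.39, 95% interval −0.96 to 0.89, adjusted p = 0.999 by edgeR). It was 0.32 without Nsd2 Vil-KO 2, 0.20 in the 4 libraries without Xist and 0.047 with scaling by library size only.
Ern2 (ENSMUSG00000030866, chr7:122169893-122186207), the IRE1β of mucosal epithelium, had 107.9, 93.5 and 45.8 CPM in controls and 99.4, 53.7 and 106.6 CPM in knockouts. Both libraries with Xist were low, so that each genotype had a pair of high values and 1 low value. The difference was 0.070 on the log2 scale (SE 0.38, 95% interval −0.83 to 0.97, exact permutation test, two-sided, p = 0.7). It was −0.22 without Nsd2 f/f 3, −0.039 without Nsd2 Vil-KO 1 and −0.11 without Nsd2 Vil-KO 3.
Atf6 (ENSMUSG00000026663, chr1:170704674-170867771), the membrane-bound transcription factor, had 66.5, 52.5 and 49.2 CPM in controls and 52.9, 85.3 and 57.7 CPM in knockouts. Nsd2 Vil-KO 2 was high and the other knockouts lay within the range of the controls. The log2 fold change of 0.22 (SE 0.24, 95% interval −0.34 to 0.78, adjusted p = 0.992 by edgeR) was −0.018 without this library. PERK itself is encoded by Eif2ak3, which had a log2 fold change of 0.25 (SE 0.21), with 0.081 without Nsd2 f/f 3 and 0.087 in the 4 libraries without Xist, and did not pass the criterion.

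Xbp1 (ENSMUSG00000020484, chr11:5520659-5525893), the factor made from mRNA that IRE1 splices, had the largest positive difference among the members. It had 369.5, 344.0 and 262.4 CPM in controls and 345.8, 573.7 and 463.0 CPM in knockouts, means of 325 ± 56.0 and 461 ± 114 (SD, n = 3). The Nsd2 Vil-KO 2 and 3 libraries were above all controls, but Nsd2 Vil-KO 1 lay between Nsd2 f/f 1 and 2. This gave a log2 fold change of 0.50 (SE 0.26, 95% interval −0.11 to 1.12, adjusted p = 0.992 by edgeR), and the exact permutation test gave p = 0.2 (two-sided). The difference passed the criterion without Nsd2 Vil-KO 1 (0.67) and did not pass it without Nsd2 Vil-KO 2 (0.32), without Nsd2 f/f 3 (0.37) or in the 4 libraries without Xist (0.19).
Atf4 (ENSMUSG00000042406, chr15:80255184-80257541), whose protein is made when eIF2α is phosphorylated, had 215.9, 262.2 and 177.0 CPM in controls and 181.8, 210.3 and 195.1 CPM in knockouts. The Nsd2 Vil-KO values all fell within the range of the controls. Its log2 fold change was −0.16 (SE 0.21, 95% interval −0.65 to 0.33, adjusted p = 0.993 by edgeR). In the 4 libraries without Xist it was −0.33 and passed the criterion, where 10.95% of genes did, and it was −0.32 and past it with limma-voom and quality weights, where 9.83% of genes were. Without Nsd2 f/f 2 it was −0.0022.
Ddit3 (ENSMUSG00000025408, chr10:127290774-127296288), which encodes CHOP, was a weakly expressed member with 146 to 214 counts per library. It had 10.6, 10.6 and 11.8 CPM in controls and 9.26, 8.27 and 8.17 CPM in knockouts, means of 11.0 ± 0.68 and 8.57 ± 0.60 (SD, n = 3). All knockout libraries were below all controls, and the exact permutation test gave its smallest possible p, 0.1 (two-sided). The log2 fold change was −0.36 (SE 0.24, 95% interval −0.92 to 0.20, adjusted p = 0.992 by edgeR), and it stayed between −0.42 and −0.27 over the 18 alternatives, all of them short of the criterion. The symbol has 2 rows in the table. The row with counts was used, the other had 0 counts and shares 105 exon bases with it, and 68 bases overlap Mars on the opposite strand, so the count is uncertain if strand was not used.

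Hspa5 (ENSMUSG00000026864, chr2:34771970-34777547), the ER Hsp70 chaperone BiP that also holds the sensors inactive, had 951, 1029 and 697 CPM in controls and 922, 734 and 1204 CPM in knockouts. The 2 lowest values were those of the libraries with Xist, 1 in each genotype. Group means were 892 ± 173 and 954 ± 237 (SD, n = 3), and the log2 fold change was 0.096 (SE 0.29, 95% interval −0.58 to 0.77, adjusted p = 0.996 by edgeR). On a linear scale that interval runs from 0.671 to 1.70 times the control level. The direction was not stable, at −0.11 without Nsd2 Vil-KO 3 and −0.051 without Nsd2 f/f 3.
Dnajb9 (ENSMUSG00000014905, chr12:44205559-44210326), the ERdj4 co-chaperone and a target of XBP1, had 32.8, 36.2 and 48.6 CPM in controls and 31.9, 38.3 and 39.5 CPM in knockouts. The highest value was in Nsd2 f/f 3, unlike most members, which were low there. For this gene the difference was −0.0998 on the log2 scale (SE 0.21, 95% interval −0.59 to 0.39, exact permutation test, two-sided, p = 0.8). It was 0.087 without Nsd2 f/f 3 and 0.059 in the 4 libraries without Xist.
Pdia4 (ENSMUSG00000025823, chr6:47796141-47813430), a protein disulphide isomerase of the ER, had 225.2, 245.5 and 188.9 CPM in controls and 227.2, 81.4 and 261.5 CPM in knockouts. The value of Nsd2 Vil-KO 2 was far below the other 5, which lay in a narrow range. The log2 fold change of −0.21 (SE 0.41, 95% interval −1.18 to 0.75, adjusted p = 0.996 by edgeR) changed sign to 0.15 without that library. It was 0.064 in the 4 libraries without Xist.

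**Figure D2:**
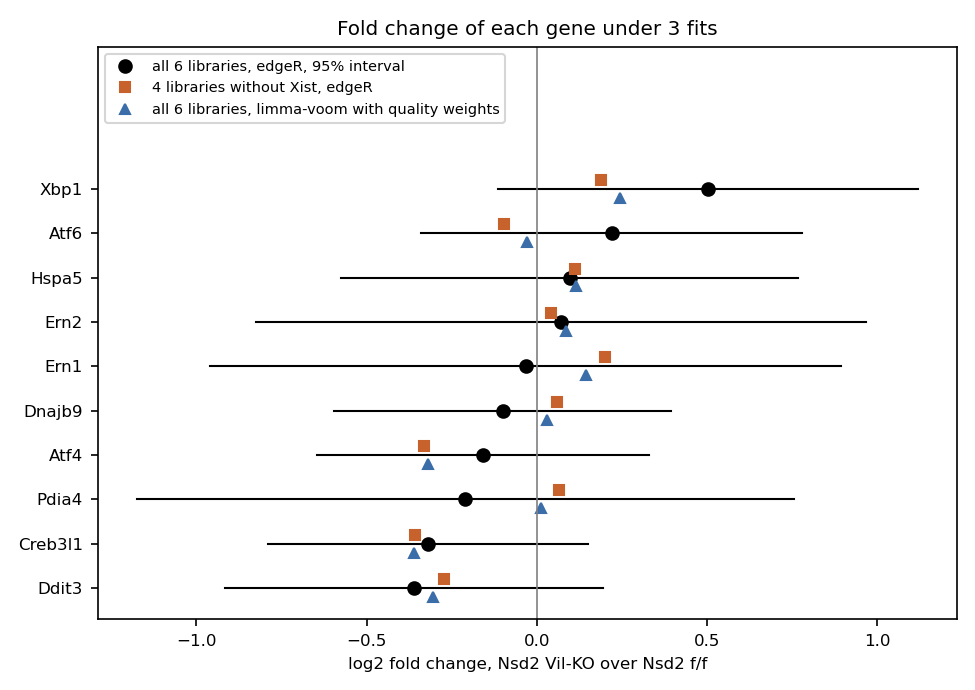
Log2 fold change of each gene (Nsd2 Vil-KO over Nsd2 f/f) by edgeR in all 6 libraries with its 95% interval (black), by edgeR in the 4 libraries without Xist (squares) and by limma-voom with quality weights (triangles). The black intervals all include 0, and Ern1, Atf6, Dnajb9 and Pdia4 change sign in both other fits.

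Creb3l1 (ENSMUSG00000027230, chr2:91982328-92024502) encodes OASIS, a membrane-bound factor of the ATF6 type that serves secretory cells. It had 348.1, 366.9 and 278.1 CPM in controls and 282.3, 242.2 and 271.6 CPM in knockouts, means of 331 ± 46.8 and 265 ± 20.8 (SD, n = 3). Only Nsd2 f/f 3 and Nsd2 Vil-KO 1 broke the separation of the genotypes, by a few CPM. Its log2 fold change was −0.32 (SE 0.20, 95% interval −0.79 to 0.15, adjusted p = 0.992 by edgeR; exact permutation test, two-sided, p = 0.2). It was below 0 under all 18 alternatives, from −0.43 to −0.23, and passed the criterion in 3 of them. These were Xist as a covariate (−0.31, with 7.82% of genes called), the 4 libraries without Xist (−0.36) and limma-voom with quality weights (−0.36). The lowest adjusted p of a member under any alternative was 0.374, by edgeR in the 4 libraries without Xist.
Goblet cell markers had a lower sum in each knockout library than in any control. The 13 markers summed to 16780, 14802 and 16892 CPM in controls and 11820, 11146 and 11462 CPM in knockouts, and 11 of the 13 had a log2 fold change below 0 (median −0.51). Absorptive colonocyte and enteroendocrine markers also mostly had log2 fold changes below 0, but general epithelial and tuft cell markers did not. Of the 10 general epithelial markers, 7 were above 0 (median 0.046), as were all 3 tested tuft cell markers (median 0.82), which were scarce. Of 10 absorptive colonocyte markers, 8 were below 0 (median −0.61), with sums that overlapped (6987 to 14326 CPM in controls, 5746 to 7705 CPM in knockouts), and of 6 enteroendocrine markers 5 were (median −0.55), with sums of 109 to 174 CPM in controls and 98.5 to 105 CPM in knockouts. Among the goblet markers, Bcas1 and Clca1 passed the criterion and were lower, and none of the 13 was at 0. The deep crypt secretory markers Reg4, Kit and Spink4 summed to between 1484 and 1808 CPM in controls and between 838 and 1161 CPM in knockouts, Reg4 passed the criterion and was lower, and Spink4 belongs to both lists. Neither sum overlapped between genotypes when libraries were scaled by size alone, at 13543 to 18441 against 9873 to 13032 CPM for goblet markers and 1450 to 1817 against 924 to 1029 CPM for the deep crypt markers. In bulk RNA, fewer goblet cells and less RNA per goblet cell cannot be told apart, and the part of these markers in the difference of Creb3l1 was not tested.
Ern2, which is also made by goblet cells, did not follow the marker sum. In a ratio chosen after values were seen, and so given with no test, Ern2 was at 0.0157, 0.0164 and 0.0130 of the CPM of Muc2, the main secreted mucin, in controls and at 0.0179, 0.0239 and 0.0247 in knockouts, without overlap. The ratio of Creb3l1 to Muc2 overlapped, at 0.0508 to 0.0792 against 0.0509 to 0.108. Muc2 itself ranged from 3512 to 6857 CPM in controls and from 2246 to 5548 CPM in knockouts and did not pass the criterion.

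**Figure D3:**
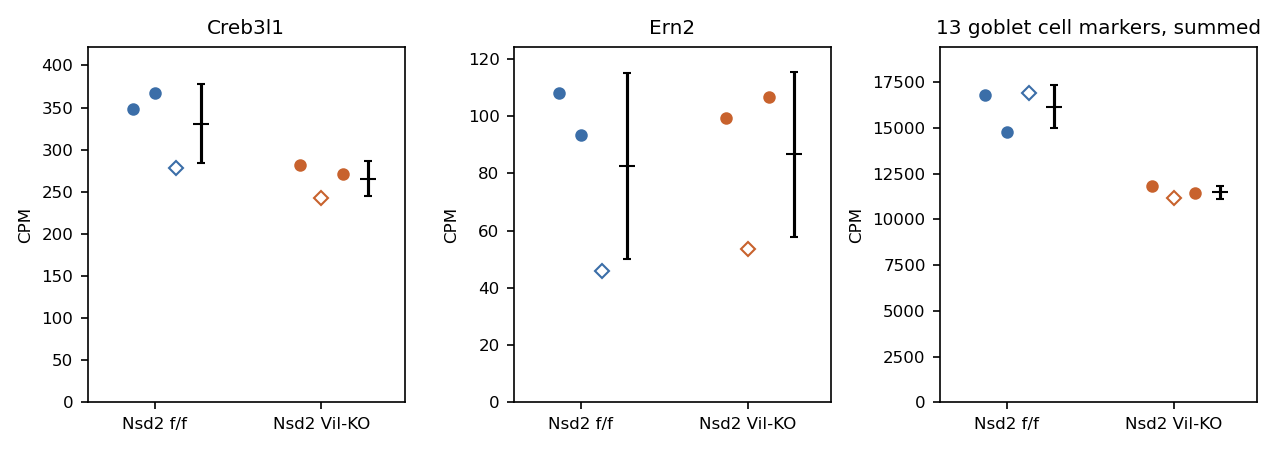
CPM of Creb3l1, of Ern2 and of 13 goblet cell markers summed in each library (points), with mean and SD (bars, n = 3) and open diamonds for libraries with Xist. The marker sums lie between 11146 and 11820 in Nsd2 Vil-KO mice, below the 14802 to 16892 of Nsd2 f/f mice, while Ern2 overlaps between genotypes.

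Several members differed widely between libraries of the same genotype. Nsd2 f/f 3 had the lowest value of the 6 libraries in 5 of the 10 members (50%), and 25.5% of all genes tested were lowest there. Nsd2 Vil-KO 2 was lowest in 3 members (30%), where 29.2% of all genes tested were. Nsd2 f/f 3 was highest in Ddit3 and Dnajb9 (20% of the members, against 23.7% of all genes tested). Nsd2 Vil-KO 2 was highest in Xbp1 and Atf6 (20%, against 28.7%). Nsd2 f/f 3 lay below all 4 libraries without Xist in 7 members and Nsd2 Vil-KO 2 in 5, and the share of all genes that did so was not computed.
The pattern within Nsd2 Vil-KO 2 was split by gene. Relative to the mean of the 4 libraries without Xist, it had 0.339 times the CPM of Pdia4, 0.375 times that of Ern1 and 0.527 times that of Ern2, but 1.51 times that of Xbp1 and 1.49 times that of Atf6. Atf4 was at 0.984 times, close to the level of those libraries. In Nsd2 f/f 3 the lowest ratio was that of Ern2, at 0.450, and the highest was that of Dnajb9, at 1.39. Neutrophil markers, 8 genes, summed to 2358 CPM in Nsd2 Vil-KO 2 and to 198 to 914 CPM in the other libraries. The sum was carried by 3 genes that were highest there, Ly6g (1355 CPM), S100a8 (574 CPM) and S100a9 (404.9 CPM). The other 5 (Csf3r, Cxcr2, Mmp8, Mmp9 and Retnlg) were highest in Nsd2 f/f 1. Outside Nsd2 Vil-KO 2, Ly6g was still at 163 to 237 CPM in each library. In Nsd2 f/f 3 it had 197 CPM, where S100a8 had 3.07 CPM and S100a9 had 4.69 CPM. The part of these markers in the members' values was not tested.

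**Figure D4:**
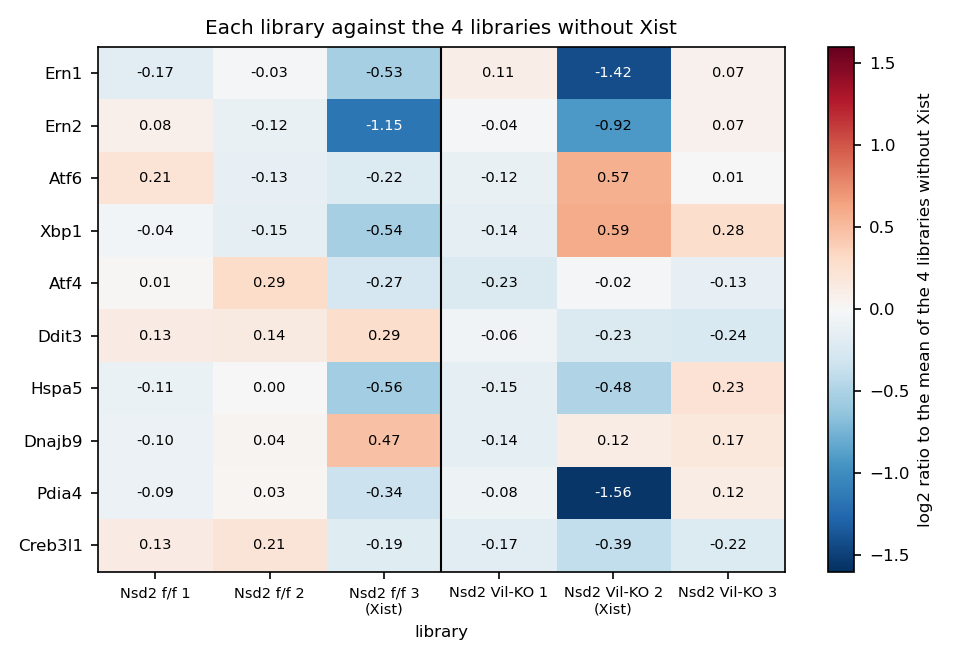
Log2 ratio of each library (columns) to the mean of the 4 libraries without Xist for each gene (rows), with Nsd2 f/f left and Nsd2 Vil-KO right of the line. The strongest departures are in Nsd2 Vil-KO 2, with Pdia4 at −1.56 and Ern1 at −1.42, and in Nsd2 f/f 3, with Ern2 at −1.15.

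Some members varied together across the 6 libraries. Pearson's r of log2 CPM was 0.97 for Ern1 with Pdia4, 0.90 for Hspa5 with Ern2 and 0.84 for Xbp1 with Atf6. It was −0.89 for Xbp1 with Ddit3 and −0.78 for Atf6 with Pdia4. These pairs were picked for a large r from all pairs of members, and others were near 0, such as Ern1 with Atf4 at 0.031. The values are descriptions over 6 libraries, in which Nsd2 f/f 3 and Nsd2 Vil-KO 2 weigh heavily.

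Plasma cells, which hold large amounts of UPR transcripts, were looked for by 13 marker symbols. Of these, 12 were in the table, and the missing Igj is an older name of Jchain. The markers summed to between 247 and 597 CPM in controls and between 429 and 808 CPM in knockouts, with overlap. Sdc1, which epithelial cells also express, had the highest mean, 245 CPM. Immunoglobulin transcripts were present in every library, with Igha at 10.2 to 324 CPM and Igkc at 8.97 to 195 CPM, both highest in Nsd2 Vil-KO 1. Mzb1 and Tnfrsf17, both listed as plasma cell markers, were at or below 0.355 CPM in each library, and at 0 in 3 and 4 of the 6 libraries. Jchain was present, at 10.7, 31.2 and 1.70 CPM in controls and 42.5, 4.88 and 17.0 CPM in knockouts, and the part of these markers in the members' values was not tested.

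The wider pathway was described over 115 tested genes in 9 lists by role. Of these, 1 passed the screening criterion (0.87%, against 3.29% of all genes tested), 11 did not overlap between genotypes (9.57%, against 9.9%), and the median log2 fold change was 0.026. The lists are described and not tested, and they share some genes.
Among 11 sensors and activators, none passed and the median was −0.033. Of the 5 OASIS family genes none passed (median 0.043). Creb3l4 did not overlap between genotypes, at 41.9 to 50.1 CPM in controls and 29.1 to 36.7 CPM in knockouts (log2 fold change −0.41, SE 0.18, adjusted p = 0.992 by edgeR), the same direction as its relative Creb3l1. It passed the criterion in the same 3 alternatives as Creb3l1, with −0.32 in the 4 libraries without Xist. Creb3l3 had a log2 fold change of 0.98 (SE 0.89) that rested on Nsd2 Vil-KO 2, with 21.9 CPM against 1.38 to 7.92 CPM elsewhere, and was −0.33 without it.
None of 14 ER chaperones and co-chaperones passed, and their median was −0.0052. Hyou1, the ER nucleotide exchange factor of BiP, had a log2 fold change of 0.18 (SE 0.42) and Cnpy2 one of −0.21 (SE 0.22). In the 4 libraries without Xist, Hyou1 was at 0.33 and passed the criterion, and it was −0.020 without Nsd2 f/f 3 and −0.094 without Nsd2 Vil-KO 3, while Cnpy2 was at −0.0059 without Nsd2 f/f 3 and −0.13 in those 4 libraries. In 9 of the 14 the lowest value was in Nsd2 Vil-KO 2 (64.3%, against 29.2% of all genes tested) and in 9 the highest was in Nsd2 Vil-KO 3 (64.3%, against 14.8%), both of the same genotype. The 17 tested genes matched by symbol to a window with the full ERSE, some of them outside the UPR lists, had a median of 0.039. Of these, 0 passed (0%, against 3.29% of all genes tested). Ero1b was missed by this match because it is listed among the counts as Ero1lb, which was at −0.18 (SE 0.26) and did not pass.
Among 11 ER oxidoreductases, none passed and 9 had a log2 fold change below 0 (median −0.11). Pdia5, a disulphide isomerase, did not overlap, at 99.3 to 123 CPM in controls and 69.0 to 93.5 CPM in knockouts (log2 fold change −0.43, SE 0.19, adjusted p = 0.992 by edgeR). It was below 0 in all 18 alternatives and passed the criterion in 4, among them that without Nsd2 f/f 3 (−0.52). Txndc11 had a log2 fold change of 0.29 (SE 0.19), which was 0.18 without either Nsd2 f/f 3 or Nsd2 Vil-KO 2 and 0.083 in the 4 libraries without Xist.
Of 18 genes of ER-associated degradation, which returns misfolded proteins to the proteasome, none passed (median 0.080). Nploc4, a cofactor of the VCP segregase, was at 68.6 to 71.7 CPM in controls and 78.2 to 108 CPM in knockouts (log2 fold change 0.37, SE 0.18), with 0.24 without Nsd2 Vil-KO 2, 0.23 in the 4 libraries without Xist and a pass with Xist as a covariate (0.36). Derl3 was scarce, at 0.0555 to 2.10 CPM (−0.92, SE 0.78), and its difference was −0.39 without Nsd2 Vil-KO 2, −0.57 without Nsd2 f/f 3, −1.73 without Nsd2 Vil-KO 1 and −0.036 in the 4 libraries without Xist. Herpud1, named after its values were seen, had 554.5 CPM in Nsd2 Vil-KO 2 and 137.5 to 169.0 CPM in the other 5 libraries. The translocon list of 23 genes had none past the criterion and a median of 0.047. Sec61a1, the channel subunit, did not overlap, at 143 to 280.1 CPM against 288 to 321 CPM in knockouts (log2 fold change 0.48, SE 0.27). It was 0.25 without Nsd2 f/f 3 and 0.24 in the 4 libraries without Xist, and it passed the criterion with Xist as a covariate (0.53). Sec62 did not overlap either, in the other direction (−0.30, SE 0.15), and passed in the same 3 alternatives as Creb3l1.
The ATF4 and CHOP arm held the gene that passed. Chac1, a glutathione-degrading enzyme induced through ATF4, was scarce, with 29, 41 and 8 counts in control libraries against 82, 76 and 52 counts in knockout libraries. Its levels were 0.646 to 2.42 CPM in controls and 2.66 to 4.22 CPM in knockouts. It rose by the screening criterion, with no overlap and a log2 fold change of 1.24 (SE 0.50, adjusted p = 0.992 by edgeR). The call was lost in 8 of its 17 alternatives, at values between 0.82 and 1.26, including without Nsd2 f/f 1 (1.19), Nsd2 f/f 3 (0.92), Nsd2 Vil-KO 1 (1.16) and Nsd2 Vil-KO 2 (1.11). The 28 genes of the arm had a median log2 fold change of 0.21, with 19 above 0, while Atf4 and Ddit3 were below 0. Nsd2 Vil-KO 2 had the highest value in 14 of the 28 (50%, against 28.7% of all genes tested) and Nsd2 f/f 3 the lowest in 17 (60.7%, against 25.5%), and in the 4 libraries without Xist the median was −0.17. Cth, of the transsulphuration pathway, had a log2 fold change of −0.61 (SE 0.39), with 98.6 CPM in Nsd2 f/f 3 against 31.7 to 44.6 CPM in the other 5 libraries, and was −0.014 without Nsd2 f/f 3 and 0.11 in the 4 libraries without Xist.
The 4 eIF2α kinases (median −0.21) and the 8 genes listed under restraint of the UPR (median 0.0053) had none past the criterion. That list name is a grouping only, and whether each of its genes, Bfar among them, restrains or promotes the UPR was not tested. Eif2ak1, the haem-regulated kinase, was at −0.29 (SE 0.23) with −0.035 without Nsd2 f/f 3 and 0.037 in the 4 libraries without Xist. Wfs1 was at 0.18 (SE 0.21), with 0.093 without Nsd2 f/f 3, 0.11 without Nsd2 Vil-KO 2 and 0.025 in the 4 libraries without Xist. Bfar was at −0.49 (SE 0.22) with no overlap between genotypes, 68.3 to 80.7 CPM against 37.6 to 62.0 CPM in knockouts. It was −0.30 without Nsd2 Vil-KO 2 and −0.22 in the 4 libraries without Xist, and passed the criterion with Xist as a covariate (−0.52) and with limma-voom (−0.28).

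**Figure D5:**
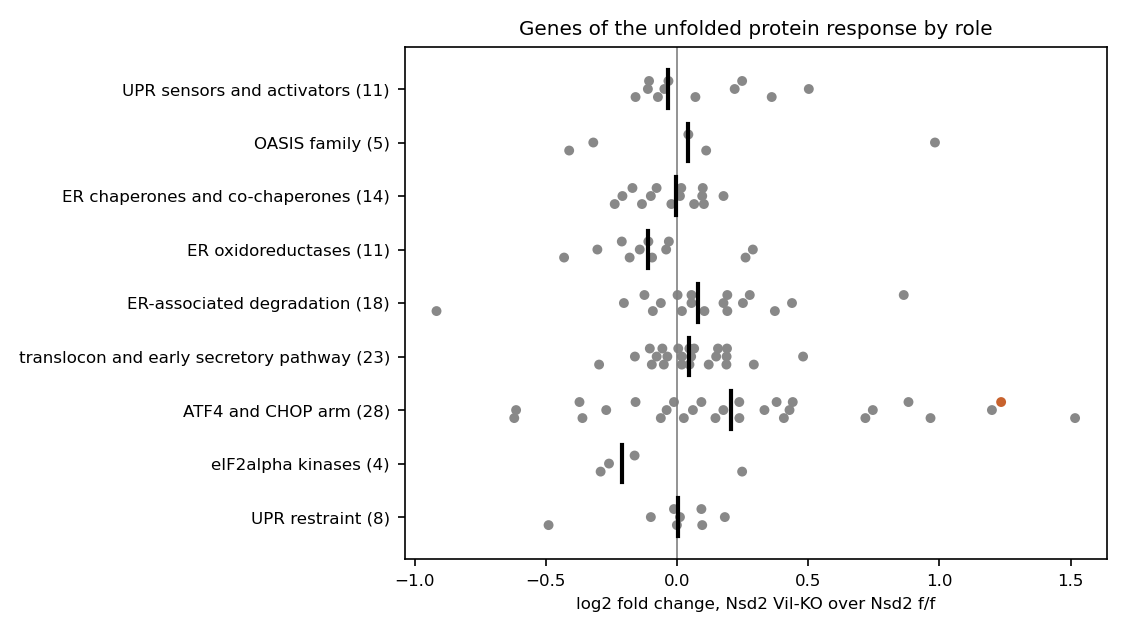
Log2 fold change (Nsd2 Vil-KO over Nsd2 f/f) of each tested gene in 9 lists of UPR genes by role, with the number of genes in parentheses and a black bar at the median. The coloured point is Chac1 at 1.24, the only gene of the lists past the screening criterion, and medians lie between −0.21 and 0.21.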

How the data were processed

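RNA-seq libraries of colon epithelial cells from DSS-treated mice were analysed. By the study's names, the 3 titled WT are called Nsd2 f/f and the 3 titled NSD2-FF-VILCRE are called Nsd2 Vil-KO. The authors deposited raw counts per Ensembl gene, unnormalised and unfiltered, for all 6 libraries (0 columns left out). Per the labels, reads were aligned to mm10 with HISAT2. The counting program, annotation and strand setting are not given in the sources used here. The study's own comparison used FPKM with StringTie and Ballgown, which was not used here. Labels and methods name different library kits.
Differences were tested with edgeR 4.0.16 (R 4.3.3), using TMM factors, filterByExpr with genotype as group, robust quasi-likelihood fit (legacy off) without covariates, and Benjamini-Hochberg adjustment over 14650 genes. The study's results name a fold change above 1.2 and a p below 0.05, without saying whether p was adjusted, and its methods name an adjusted p below 0.05. Both were applied, with the unadjusted p in the screening criterion. Intervals of 95% came from the fit. Exact permutation tests used log2(CPM + 1). The fit was tested on simulated data. Libraries of 15439123 to 20350539 counts set the precision, with a biological coefficient of variation of 41.2%. CPM per kilobase used exon lengths of GENCODE vM21, where 99.5% of listed genes were found.
The members and lists were chosen with earlier results of these data known. The text names Nsd2, the members and, in each list, the gene with the smallest p in each direction, with other names marked or given only as levels, sequences or marker sums. Alternatives covered scaling, filter, model (DESeq2 1.42.0, limma 3.58.1), a replicate block, mitochondrial genes, Xist as a covariate or the 4 libraries without it, and each library left out. Promoters came from RefSeq on GRCm38.p6. Figures were drawn with matplotlib 3.10.9.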

Additional observations from a re-analysis of the deposited data

How the results depend on the processing

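Of 180 values of the 10 members under 18 alternatives, 155 kept their sign and their side of the criterion, 6 passed it and 19 changed sign. The count of genes past the criterion, 482, was 861 with no filter, 303 with a replicate block, 1145 with Xist as a covariate, 1646 in the 4 libraries without Xist, 1440 with limma-voom and quality weights, and 323 to 769 with a library left out in turn (769 without Nsd2 Vil-KO 2). DESeq2 gave 4 genes with an adjusted p below 0.05. The number of members past the screening criterion, 0, was 1 with Xist as a covariate, 2 in the 4 libraries without Xist, 2 with limma-voom and 0 to 1 with a library left out (1 without Nsd2 Vil-KO 1). The cause was not tested.
Ern1 was at 0.047 with library size only, 0.20 in the 4 libraries and 0.15 with limma-voom. In the same 4 libraries and limma-voom, Atf6 was at −0.096 and −0.030, Dnajb9 at 0.059 and 0.030, Pdia4 at 0.064 and 0.012, and Cth at 0.11 and 0.027. Eif2ak1 was at 0.037 in the 4 libraries and Creb3l3 at −0.21 with limma-voom. With a library left out, log2 fold changes ran from −0.11 to 0.25 for Hspa5, −0.26 to 0.32 for Ern1, −0.22 to 0.32 for Ern2, −0.018 to 0.36 for Atf6, −0.21 to 0.087 for Dnajb9, −0.51 to 0.15 for Pdia4, −0.33 to 1.502 for Creb3l3 and −0.094 to 0.53 for Hyou1. Nsd2 stayed below 0, from −1.42 to −0.87, and missed the criterion without Nsd2 f/f 1 (−1.04), without Nsd2 f/f 2 (−0.97) and with library size only (−1.12).
The replicate block gave Xbp1 0.49 and Creb3l1 −0.31 and changed no call of the members. After each genotype's mean was subtracted from the log2 CPM of each gene, same-numbered libraries correlated at 0.32, −0.35 and −0.11. The values had no common sign, and the main fit used no pairing. Both Xist settings were listed with earlier results known. The older form of the quasi-likelihood fit (434 genes) was added after the data were seen. With 3 libraries a genotype, even the narrowest interval among the members, that of Creb3l1, ran from −0.79 to 0.15. Differences of either sign within such intervals thus stayed compatible with these libraries.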
